A study of Homo sapiens with 7 samples.

Results

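The regions described here are the H3K9Ac peaks of HCT116 cells that share no base with a listed peak of H3K4me1 or H3K4me3. They were chosen by the positions and widths in the broad peak lists: an H3K9Ac peak had to be under 10000 bp wide and free of overlap with both H3K4 lists. Of 34164 H3K9Ac peaks, 33561 were narrower than this limit, and 2852 of those overlapped neither H3K4 mark. The remaining 30709 were divided for comparison into 15899 peaks that overlapped H3K4me1 and no H3K4me3, and 14810 that overlapped H3K4me3. HCT116 is a human colorectal carcinoma cell line. Chromatin came from cultures of about 200000 cells per well, for which no treatment is given, cross-linked, and sheared by 6 min of ultrasound in 100 μl with PIXUL, an instrument that sonicates 96-well plates from below. Each antibody was used on 1 well and gave 1 library of 75-bp reads, so no value carries a replicate error, and no test between groups of peaks was made. For shares of peaks the 95% Wilson interval is given, and it accounts for counting error alone. As a check of the cell type, H3K4me3 peaks lay within 1000 bp of the transcription start site (TSS) of 5 of 9 colon epithelium genes (EPCAM, CDH1, KRT8, KRT18 and CDX2). VIL1, CDX1, LGALS4 and KRT20 had none there. Of 8 genes of other cell types, COL1A1 alone had such a peak.

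Acetylation of histone H3 at lysine 9 is laid down by acetyltransferases of the GCN5 and PCAF family and marks active promoters and many enhancers. At promoters it normally lies beside trimethylated lysine 4, and at enhancers beside monomethylated lysine 4. H3K36me3 is placed by SETD2, which travels with elongating RNA polymerase II, and covers the bodies and the 3′ parts of transcribed genes. The zinc-finger protein CTCF recognises a long DNA motif, halts the loop-extruding cohesin complex and marks many boundaries between chromatin domains. H3K27me3 is the mark of Polycomb repression.

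Of CTCF, H3K36me3 and H3K27me3, the marks compared here, CTCF overlapped the most of these regions, and the motif it binds can be read in the sequence. Below are the 6 regions of highest H3K9Ac fold enrichment that overlap CTCF and hold an exact match to the CTCF core motif in both peaks. Each line gives 100 bases of hg19, 5′ to 3′ on the named strand, with the 12 bases of the core in capitals.
chr14:60651196-60651295, minus strand: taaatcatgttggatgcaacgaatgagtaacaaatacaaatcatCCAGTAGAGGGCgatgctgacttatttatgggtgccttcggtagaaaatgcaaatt
chr3:97758290-97758389, plus strand: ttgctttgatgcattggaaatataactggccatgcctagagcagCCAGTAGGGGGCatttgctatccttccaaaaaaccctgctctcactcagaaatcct
chr16:50840575-50840674, minus strand: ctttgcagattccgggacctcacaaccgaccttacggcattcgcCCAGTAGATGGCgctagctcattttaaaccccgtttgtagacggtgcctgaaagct
chr4:41283192-41283291, plus strand: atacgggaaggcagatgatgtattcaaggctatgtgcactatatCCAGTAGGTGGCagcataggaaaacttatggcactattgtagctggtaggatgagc
chr3:128336646-128336745, plus strand: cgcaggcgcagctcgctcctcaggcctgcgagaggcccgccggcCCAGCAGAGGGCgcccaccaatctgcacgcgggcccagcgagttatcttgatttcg
chr7:128249125-128249224, plus strand: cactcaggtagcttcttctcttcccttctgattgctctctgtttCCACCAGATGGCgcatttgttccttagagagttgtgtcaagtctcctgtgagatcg
None of the 6 lay in a protein-coding gene. The H3K9Ac fold enrichment of these regions ran from 3.93 at the chromosome 7 region to 4.39 at the chromosome 14 region, and the CTCF fold enrichment from 10.5 at the chromosome 4 region to 21.5 at the chromosome 16 region. The nearest coding TSS was 4200 bp away for the first chromosome 3 region (GABRR3) and between 18949 and 64551 bp away for the others. The core stood 19 bp from the centre of the H3K9Ac peak at the first chromosome 3 region and 415 bp from it at the second, whose H3K9Ac peak was 2082 bp wide.

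The regions without H3K4 methylation were narrow, weak H3K9Ac peaks. Their width and enrichment come from the list that defined them and are given as a description. Fold enrichment is the linear ratio over local background written by the peak caller. The median width was 612.5 bp, with the middle 50% between 395 and 983 bp, and 364 regions had the narrowest width in the list, 305 bp. The median was 1147 bp for peaks with H3K4me1 only and 2660 bp for peaks with H3K4me3. Fold enrichment ran from 1.503 to 5.37 with a median of 2.83, against 3.26 with H3K4me1 only and 11.2 with H3K4me3. The median −log10 q-value was 1.46, and 565 regions (19.8%) reached 2. A filter on this mark at a fold over 5 and a q-value under 1e-10, as in the Methods, left 0 of the 2852 regions. Their highest −log10 q-value was 7.93. Together they covered 2.14 Mb, against 25.6 Mb for peaks with H3K4me1 only and 44.6 Mb for peaks with H3K4me3.

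**Figure D1:**
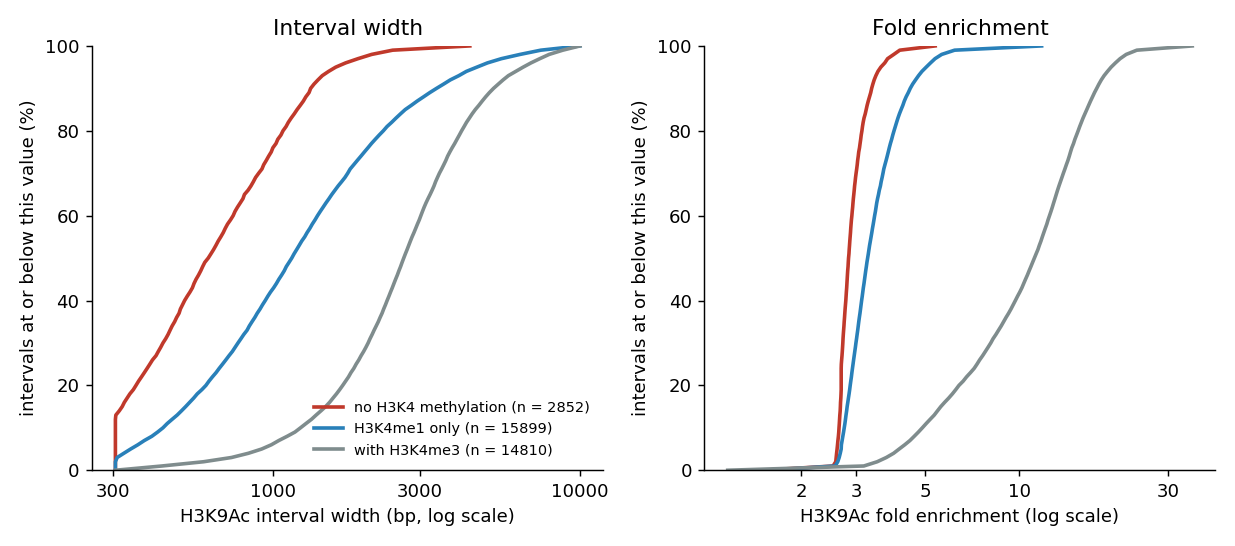
Cumulative share of H3K9Ac peaks (y axis, %) at or below each width (left, bp, log scale) and fold enrichment (right, log scale), 1 curve per group of peaks. The curve of the 2852 peaks without H3K4 methylation lies to the left of both others over most of each panel, apart from the lowest few percent, with medians of 612.5 bp and 2.83.

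The width limit did not decide membership, since 0 of the 603 peaks of 10000 bp or more were free of H3K4 methylation and the widest region measured 4370 bp. The boundary of the set was the overlap itself. The nearest H3K4 peak lay a median of 5783 bp away (middle 50%, 2038.5 to 17837 bp), and 328 regions had one at under 1000 bp. Just inside the boundary stood 78 regions with an H3K4 peak at under 100 bp, the closest in direct contact. Just outside stood 112 H3K9Ac peaks that shared under 100 bp with one, the smallest overlap being 1 bp. A region without a listed H3K4 peak may still carry methylation under the cutoff of the list, and dimethylated lysine 4 was not among the 7 antibodies.

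CTCF peaks overlapped 1083 of the 2852 regions, or 38.0% (95% Wilson interval 36.2 to 39.8%). Over all H3K9Ac peaks under 10000 bp the share was 36.3%. That average hid a difference between groups, as it was 25.2% (24.5 to 25.9%) in peaks with H3K4me1 only and 48.0% (47.2 to 48.8%) in peaks with H3K4me3. H3K36me3 peaks overlapped 827 regions, or 29.0% (27.4 to 30.7%), where all H3K9Ac peaks under the limit gave 21.1%. The share was 14.3% (13.8 to 14.9%) with H3K4me1 only and 26.8% (26.1 to 27.5%) with H3K4me3. The order of the regions and the peaks with H3K4me3 turned when the H3K4 lists were limited to peaks past the filter (21.2 against 30.6%) and when H3K9Ac peaks had to reach a −log10 q-value of 2 (20.4 against 26.9%). H3K27me3 peaks overlapped 114 regions, or 4.0% (3.34 to 4.78%), close to the 3.83% over all H3K9Ac peaks under the limit. CTCF peaks covered 1.22% of the sequenced bases of hg19, H3K36me3 peaks 7.16% and H3K27me3 peaks 7.76%. With CTCF peaks limited to those past the filter (q-value below 1e-10, fold above 5) the order changed, and the regions without H3K4 methylation had the highest share of the groups, 32.7% against 19.5% and 26.1%. It also changed with H3K9Ac peaks at a −log10 q-value of at least 2, where the shares were 54.2, 26.8 and 48.1%.

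**Figure D2:**
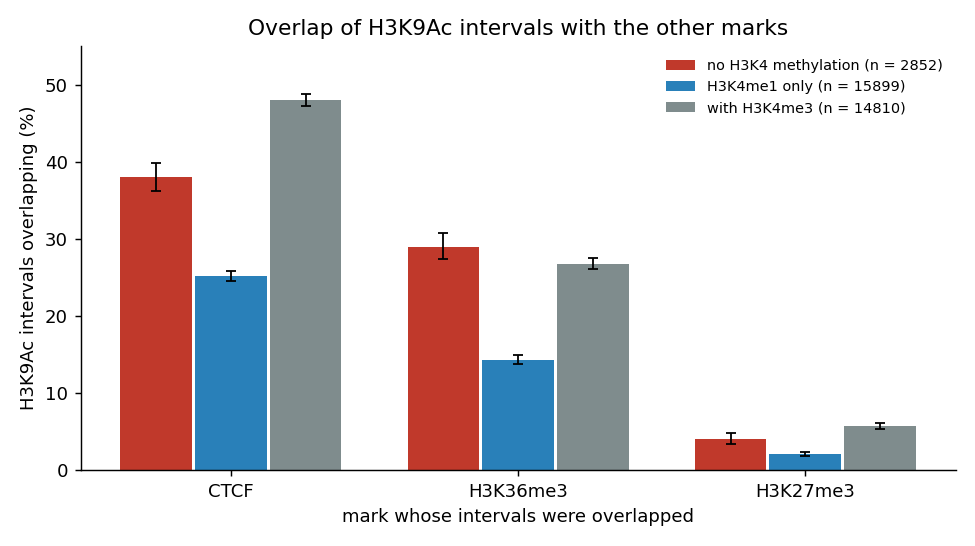
Share of H3K9Ac peaks (y axis, %) that overlap a CTCF, H3K36me3 or H3K27me3 peak by at least 1 bp, for the 3 groups of H3K9Ac peaks. Bars are shares and lines are 95% Wilson intervals. The bars for peaks without H3K4 methylation stand at 38.0, 29.0 and 4.0%, each above the bar for H3K4me1 only.

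CTCF and H3K36me3 marked largely separate regions. CTCF alone was found at 925 regions, H3K36me3 alone at 669, both at 158 and neither at 1100. CTCF overlapped 19.1% (16.6 to 21.9%) of the regions with H3K36me3 and 45.7% (43.5 to 47.9%) of the regions without it. The split followed genes. Among the 1813 regions that overlapped a protein-coding gene, 29.7% had CTCF and 41.3% had H3K36me3. Among the 1039 regions outside coding genes, 52.4% had CTCF and 7.60% had H3K36me3. Peaks with H3K4me1 only had CTCF at 22.1% inside and 29.7% outside coding genes, and H3K36me3 at 21.8% inside and 3.5% outside.

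The share with CTCF was higher at regions of higher H3K9Ac fold enrichment, and the share with H3K36me3 was lower. The regions were divided into 5 bins of fold enrichment between 2.5 and 6, and 27 regions under the lowest bin were left out. From the lowest to the highest bin, CTCF overlapped 27.8%, 37.2%, 47.0%, 62.5% and 74.5% of the regions. Over the same bins H3K36me3 overlapped 34.0%, 30.2%, 24.4%, 15.4% and 6.38%. The top bin held 47 regions, and its CTCF interval was 60.5 to 84.7%. In peaks with H3K4me1 only, the CTCF share in these bins lay between 19.1 and 29.97%, and in every bin it was under the share at regions without H3K4 methylation. The H3K36me3 shares of both groups crossed, since in the top bin it was 16.2% with H3K4me1 only. Width gave another pattern. H3K36me3 overlapped 22.4% of the regions of 305 to 400 bp and 59.4% (47.6 to 70.2%) of the 69 regions of 2000 bp or more, whereas the CTCF share lay between 32.7 and 42.0% in all width bins. Wider peaks have more bases in which an overlap can fall.

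**Figure D3:**
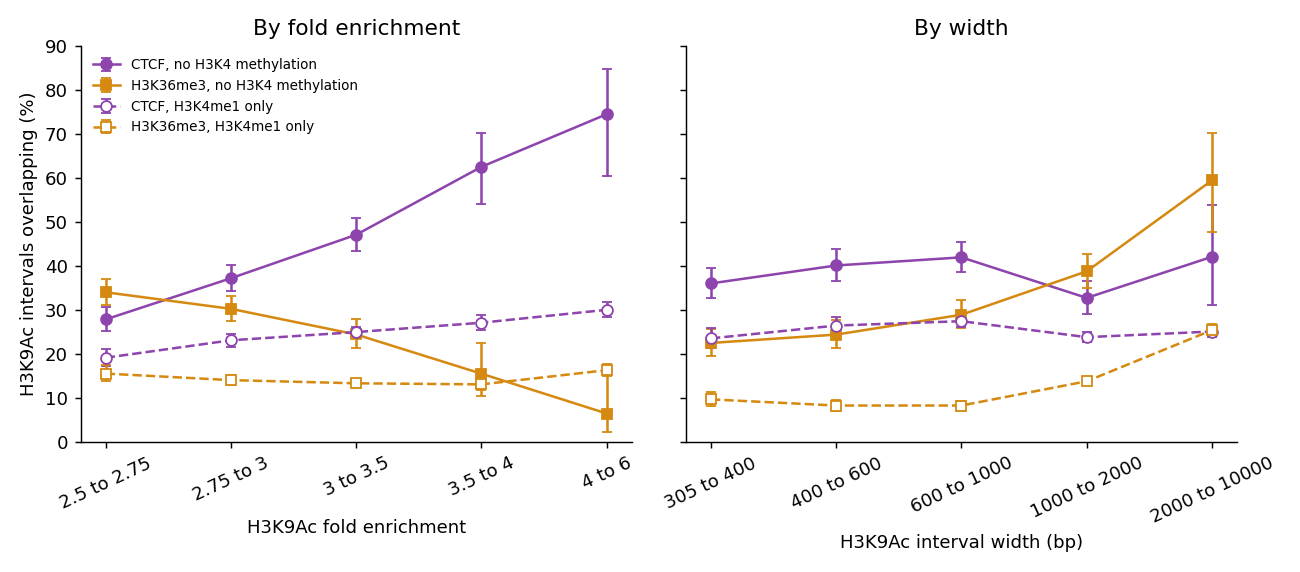
Share of H3K9Ac peaks (y axis, %) overlapping CTCF (circles) or H3K36me3 (squares) in bins of H3K9Ac fold enrichment (left) and of width (right, bp), for peaks without H3K4 methylation (filled, solid) and with H3K4me1 only (open, dashed). Lines through points are 95% Wilson intervals. The filled circles climb from 27.8 to 74.5% over the fold bins while the filled squares go from 34.0 to 6.38%.

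The CTCF peaks at these regions were strong ones. A total of 1081 CTCF peaks, 2.41% of the list of 44812, overlapped a region, and 930 of them (86.0%, 83.8 to 88.0%) passed the filter, against 54.8% of all CTCF peaks. Their median fold enrichment was 10.99 (middle 50%, 8.36 to 13.6), next to 10.89 at peaks with H3K4me1 only, 7.20 at peaks with H3K4me3 and 6.69 at CTCF peaks without H3K9Ac. The exact core motif was present in 245 of the 1081 (22.7%, 20.3 to 25.3%), and in 15.7% of all CTCF peaks. It was present in 19.3% of those at H3K4me1-only peaks, in 8.26% of those at peaks with H3K4me3 and in 16.8% of those without H3K9Ac. Among CTCF peaks with a fold enrichment from 10 to 20 the motif share was 26.6% (23.2 to 30.2%) at the regions and 26.6% in the whole list. A CTCF peak and the region it overlapped were centred close together, a median of 231 bp apart. The centre of the CTCF peak fell inside 672 of the 1083 regions, and 275 regions were covered by CTCF over their whole width. In the 148 regions that held an exact core themselves, it lay a median of 135.5 bp from the centre. Overlaps included, 58.1% of the regions had a CTCF peak within 5000 bp, against 40.9% of peaks with H3K4me1 only and 59.0% of peaks with H3K4me3.

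**Figure D4:**
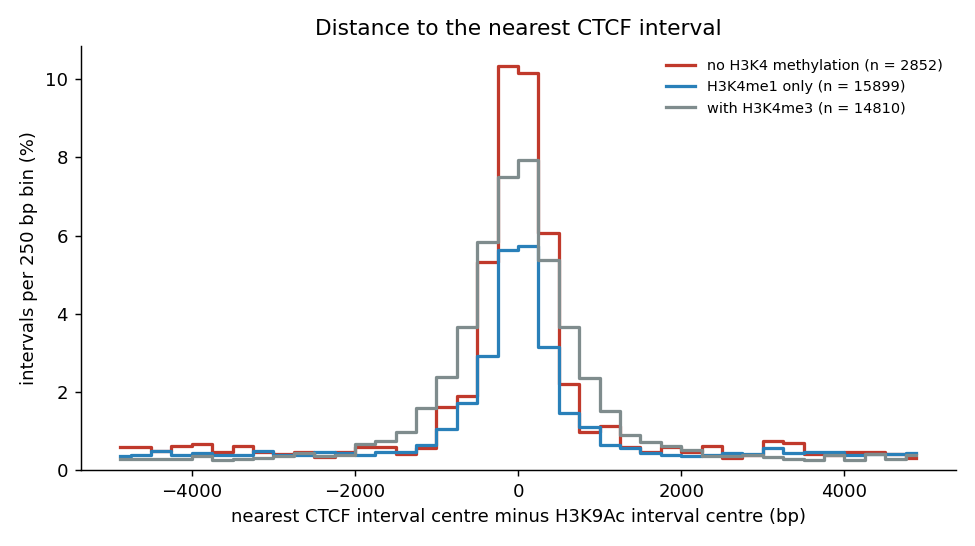
Distance from the centre of each H3K9Ac peak to the centre of the nearest CTCF peak (x axis, bp, 250 bp bins) against the share of the group's peaks in each bin (y axis, %). The bins on either side of 0 hold 10.3 and 10.2% of the regions without H3K4 methylation, against 5.64 and 5.74% of peaks with H3K4me1 only and 7.51 and 7.93% of peaks with H3K4me3.

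The H3K36me3 peaks at these regions were wide domains over genes. The 827 regions met 780 H3K36me3 peaks, of which 746 (95.6%) overlapped a protein-coding gene. Nearly the same share did so elsewhere in the list, 91.4% of those that met other H3K9Ac peaks only and 92.3% of those without H3K9Ac. The 780 peaks had a median width of 12342 bp (middle 50%, 4578.25 to 25316 bp). It was 4712 bp for those that met other H3K9Ac peaks only and 1791 bp for those without H3K9Ac. An H3K36me3 peak that met both a region and another H3K9Ac peak was counted with the regions. A wider peak is also more likely to meet a region, so the difference in width is a description. Their median fold enrichment was 3.59, and 2.92 for those without H3K9Ac. An H3K36me3 peak covered 669 of the 827 regions (80.9%) from end to end. The H3K36me3 list was weak throughout, with 90 of 40010 peaks past its filter, and with those alone 13 of the 2852 regions (0.456%) retained the mark.

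Most of the regions lay inside protein-coding genes and few within 1000 bp of the start site taken for each gene. The rule left out H3K9Ac peaks that overlap H3K4me3, and H3K4me3 lay within 1000 bp of the TSS of 61.6% of coding genes. The low share at start sites and the distance to them are therefore tied to the rule and given as a description. A coding gene was overlapped by 1813 of 2852 regions, or 63.6% (61.8 to 65.3%), against 70.5% of all H3K9Ac peaks under the limit, 59.1% with H3K4me1 only and 84.0% with H3K4me3. Coding genes span 45.7% of the sequenced bases of hg19. A coding TSS lay within 1000 bp of 51 regions, or 1.79% (1.36 to 2.34%), against 32.7% of all H3K9Ac peaks under the limit, 2.46% with H3K4me1 only and 71.1% with H3K4me3. With H3K4 peaks past the filter only, this share was 3.90% for the regions and 4.26% with H3K4me1 only, and with H3K9Ac peaks at a −log10 q-value of at least 2 it was 3.36% (2.16 to 5.19%) and 2.57% (2.28 to 2.90%). An exon of a coding gene was touched by a further 530 regions (18.6%) and an intron by 1238 (43.4%). Starts of other transcripts outside coding genes took 97 regions (3.40%), other annotated genes 269 (9.43%), and 667 (23.4%) had none of these. Counted over the starts of all annotated transcripts, inside coding genes too, 504 regions (17.7%, 16.3 to 19.1%) had one within 1000 bp. This share was 48.9% over all H3K9Ac peaks under the limit, 19.1% with H3K4me1 only and 86.8% with H3K4me3. The nearest coding TSS was a median of 28118.5 bp from the centre of a region, 34807 bp with H3K4me1 only and 575 bp with H3K4me3. Regions were not drawn to the 5′ part of genes, and neither were peaks with H3K4me1 only. Gene bodies were divided into 4 equal parts from the start to the end of the gene. The parts held 23.8, 23.2, 23.7 and 29.3% of the 1787 regions centred in them. For peaks with H3K4me1 only the shares were 25.3, 27.1, 24.3 and 23.3%, whereas 74.6% of peaks with H3K4me3 lay in the first part. The end of a coding gene lay within 1000 bp of 161 regions (5.65%, 4.86 to 6.55%), under the 6.68% of all H3K9Ac peaks under the limit. This share was 4.14% with H3K4me1 only and 9.61% with H3K4me3.

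Per length of annotation, centres of the regions were densest in exons of coding genes, at 2.56 per Mb. First introns followed at 1.499 and the rest of coding genes at 1.19. Other annotated genes had 0.698 and sequence outside every gene 0.680. In the same order, peaks with H3K4me1 only had 8.63, 9.35, 6.19, 4.30 and 4.35 per Mb. Peaks with H3K4me3 had 42.4, 17.1, 2.08, 3.07 and 2.18. The CTCF-alone and H3K36me3-alone regions differed in this respect. Regions with CTCF alone were spread nearly evenly, between 0.292 and 0.387 per Mb in all 5 kinds of sequence. Regions with H3K36me3 alone reached 1.31 per Mb in exons, 0.368 in first introns and 0.390 in the rest of coding genes, and were at 0.0491 and 0.0396 per Mb elsewhere. Of these 669 regions, 91.2% overlapped a coding gene and 39.2% an exon, next to 43.4% and 10.9% of the 925 with CTCF alone. The 1100 with neither mark lay between, with 60.4% in a coding gene and 11.6% in an exon. Regions with CTCF alone were also farther from H3K4 methylation, at a median of 11176 bp, than those with H3K36me3 alone (3278 bp) or with neither mark (4126.5 bp).

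**Figure D5:**
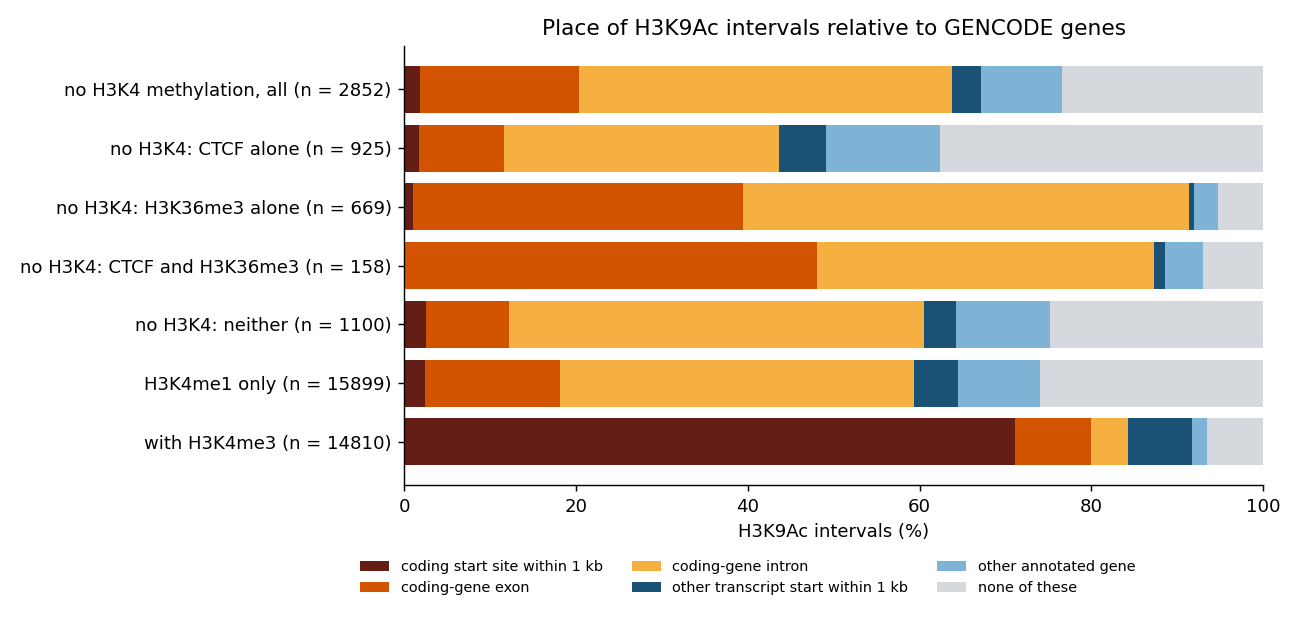
Place of H3K9Ac peaks relative to GENCODE 44 genes, as the share of each group (x axis, %), with each peak counted once in the order of the legend. Exons and introns of coding genes fill 38.4 and 51.9% of the bar for H3K36me3 alone and 9.84 and 32.1% of the bar for CTCF alone, and coding TSS fill 71.1% of the bar with H3K4me3.

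Genes that held a region were mostly genes with an H3K4me3-marked start. Of 20162 protein-coding genes, 1651 (8.19%) overlapped at least 1 region, 1420 of them exactly 1. H3K4me3 lay within 1000 bp of the TSS of 1320 of the 1651 (80.0%, 78.0 to 81.8%), against 61.6% of all coding genes and 71.5% of those that held an H3K4me1-only peak. H3K36me3 overlapped the body of 78.0%, against 56.3% of all and 67.2% of those that held an H3K4me1-only peak. For the 733 genes that held a region with H3K36me3, 93.9% had H3K4me3 at the TSS, and for the 556 that held a region with CTCF it was 72.7%. Host genes were long, with a median of 80604 bp against 27220 bp over all coding genes. Genes that held an H3K4me1-only peak were long as well, with a median of 70397 bp. At like length the share still differed: among genes of 100000 to 300000 bp, 20.9% (19.2 to 22.8%) of those with H3K4me3 at the TSS held a region and 10.5% (8.53 to 12.7%) of those without.

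The 51 regions at coding TSS are H3K9Ac peaks within 1000 bp of a start site that share no base with an H3K4 peak. An H3K4 peak can still lie close by, and with a gap of 1000 bp to H3K4 peaks 46 were left. The start site lay inside the peak at 27 of the 51. It lay outside the peak at SORCS2, HLA-DMB and EMX2, named below. Of the 51, CTCF overlapped 16, H3K36me3 7 and H3K27me3 5, and 23 had none of these marks. The highest fold enrichment was 4.17 at SORCS2, a sorting receptor of the sortilin family, where a CTCF peak overlapped. Next stood H2BC6, a replication-dependent histone H2B gene of the large cluster on chromosome 6, with 4.12 over 1830 bp, and FEZ1, an adaptor of kinesin transport, with 3.87. Further names in this group were chosen after their values were seen and not by rank, and some regions of higher fold enrichment are not named. They include the Toll-like receptor genes TLR1 (3.42) and TLR10 (2.67), both with CTCF, and the class II antigen-loading gene HLA-DMB (3.51). Also among them are the complement protease gene C1R (3.48, with CTCF), the costimulatory ligand CD80 (3.11, with CTCF) and the homeobox gene EMX2 (3.24, with H3K27me3).

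Of the 12 regions with the highest H3K9Ac fold enrichment, 9 overlapped CTCF, 0 overlapped H3K36me3 and 6 overlapped a coding gene. The highest was chr6:24855471-24856474, with a fold enrichment of 5.37, in an intron of RIPOR2, whose product inhibits the GTPase RhoA. The CTCF peak over it had a fold enrichment of 11.5, and the nearest H3K4 peak was 78158 bp away. Next was chr1:60224929-60225362 (fold 5.03) in an intron of FGGY, a gene for a carbohydrate kinase, with CTCF at 16.1. The region chr3:12933209-12933683 (4.82) lay outside every gene, 50382 bp from the TSS of the ribosomal protein gene RPL32, with CTCF at 13.0. The region chr2:69952114-69952532 (4.74) lay in an intron of ANXA4, an annexin that binds phospholipids in the presence of calcium, and its CTCF peak of 9.82 held an exact core. The region chr14:94372820-94373200 (4.71) lay in the long non-coding RNA gene FAM181A-AS1, with CTCF at 15.4. The remaining 7 lay between 4.39 and 4.55.

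Among those 7, regions with CTCF included chr1:37169064-37169866 at a long non-coding RNA start (CTCF fold enrichment 14.9), chr14:60650686-60651444 outside every gene (12.1, printed above) and chrX:116021159-116021463 outside every gene (6.07), which was 369244 bp from the nearest H3K4 peak. The 3 without CTCF were chr10:134247707-134248258 in the long non-coding RNA gene LINC03068, chr15:89081395-89081912 in introns of DET1 and ENSG00000173867, and chr13:46948366-46948910 in RUBCNL, a regulator of autophagy. The DET1 region has 4 near-identical copies in hg19, the closest 98.7% identical and also on chromosome 15. Over the 50 highest regions, CTCF overlapped 37 and H3K36me3 3.

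The highest region with H3K36me3 was chr5:10283847-10284342 in an intron of CMBL, a gene for a hydrolase, with an H3K9Ac fold enrichment of 4.21. It also had CTCF, at 21.1, and an H3K36me3 peak of 12150 bp with a fold enrichment of 3.24. The others were an intron of DST, the cytoskeletal linker dystonin (4.10), an intron shared by PDXDC1 and RRN3, the latter an initiation factor of RNA polymerase I (4.10), and the printed regions on chromosome 3 (3.97) and chromosome 7 (3.93), both outside coding genes. Of these 5, 4 also had CTCF, the PDXDC1 and RRN3 region being the exception. The DST region has 15 near-identical copies in hg19, and the PDXDC1 and chromosome 7 regions have 1 each.

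The 5 highest regions with H3K27me3 had H3K9Ac fold enrichments between 3.77 and 4.27, and H3K27me3 fold enrichments between 2.754 and 3.59. They lay in introns of LRMDA, ADARB2 and NAV2, or outside genes near TUBGCP5 and the neurofilament gene NEFL. Of all 114 regions with H3K27me3, 41 had CTCF (35.96%), 3 had H3K36me3 (2.63%) and 50 overlapped a coding gene (43.9%). Near-identical copies were more common there, at 16 of 114 (14.04%, 8.83 to 21.6%), than over all regions (5.40%).

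The widest region, chr11:5468298-5472667, measured 4370 bp with an H3K9Ac fold enrichment of 2.88 and lay at the olfactory receptor gene OR51I2, under an H3K36me3 peak of 60249 bp. The second, chr17:45017565-45021408, lay in GOSR2, a SNARE protein gene, and had both CTCF (16.4) and H3K36me3 (4.04). The third, chr2:182799477-182802850, lay outside every gene and had none of the other marks.

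ZBTB20, a zinc-finger repressor, was among the genes that held the most regions, with 9 over its 832793 bp, of which 4 had H3K36me3 and 2 had CTCF. It also held 27 H3K4me1-only peaks. GSE1, a protein of histone deacetylase co-repressor complexes, held 8, of which 1 had CTCF and 1 had H3K36me3, beside 27 H3K4me1-only peaks. The gene model ENSG00000239920 on chromosome 11 also held 8, and OR51B5, HBE1 and HBG2, which overlap it in the annotation, held 7 each, beside 9 H3K4me1-only peaks in the first and 8 in each of the others. The 7 are among those 8, which lay between 5363783 and 5646489 on chromosome 11, in the olfactory receptor cluster. The annotated models of HBE1 and HBG2 span 237308 and 252418 bp. The nearest coding TSS of each of the 8 was that of an olfactory receptor gene or of TRIM34, and of no globin gene. Of the 7 in OR51B5, all had H3K36me3 and 1 had CTCF, and the 4 gene models had no H3K4me3 at the TSS.

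Lists of genes were read against the 8.19% of all coding genes that held a region. Among 81 cytoplasmic ribosomal protein genes, 11 held 1 region each (13.6%, 7.76 to 22.7%). The median length of the 81 was 5548 bp, and all of the 11 were longer, from 5905 bp (RPL23) to 80356 bp (RPL37A). In 8 of the 11 the region had H3K36me3, as in RPL23 (H3K9Ac fold 2.91), RPL32 (2.72) and RPL37 (2.71), while the region in RPS24 had the highest fold enrichment, 3.49, without it. Of 35 genes of the Wnt pathway, which drives most colorectal tumours, 6 held 11 regions in all (17.1%, 8.10 to 32.7%). ZNRF3, a ubiquitin ligase that removes Wnt receptors, had 3, with fold enrichments of 2.62 to 3.54. CSNK1A1, a kinase of the β-catenin destruction complex, and TCF7L2, a transcription factor of the pathway, had 2 each, all 4 with H3K36me3. TCF7L1, a repressor of the same family, had 2, both with CTCF. AXIN2 and NKD1, feedback inhibitors of the pathway, had 1 each.

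Of 25 genes of adherens and tight junctions, 5 held regions (8.86 to 39.1% of the list), among them TJP1, CTNNA1, PATJ and PARD3 with 1 each. Of 32 enzymes and readers of these chromatin marks, 5 held regions (15.6%, 6.86 to 31.8%). NSD2, a methyltransferase of H3K36, and HDAC4 had 2 each, and HDAC5, KMT2C and CTCFL 1 each. Of 22 glycolysis genes, 2 did (9.09%, 2.53 to 27.8%), PKM with H3K36me3 and LDHB with CTCF. Except for the ribosomal proteins, these genes were longer than coding genes in general, with list medians of 37403.5 to 76888 bp. Of 399 olfactory receptor genes 3 held a region (0.752%, 0.256 to 2.19%), all of the chromosome 11 cluster. The receptor genes had a median length of 1869 bp, and 0 had H3K4me3 at the TSS. Among all coding genes under 10000 bp without H3K4me3 at the TSS the share was close to this, 0.890% (26 of 2922). Of 249 zinc finger genes on chromosome 19, 0 did, which allows a share of up to 1.20%.

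By chromosome, the regions made up between 4.43% (X) and 11.7% (chromosome 4) of the H3K9Ac peaks under 10000 bp on every chromosome but Y, where they were 8 of 63. Chromosome 17 had the highest density, 2.72 regions per Mb, and X 0.206. Of 3113 windows of 1 Mb, 1380 held a region, 682 of them exactly 1, and 107 held 5 or more. The window with the most was chr16:89000001-90000000, near the end of the long arm, with 13 regions, of which 9 had H3K36me3. It also held 29 peaks with H3K4me1 only and 25 with H3K4me3. Next was chr12:76000001-77000000, with 11, of which 4 had H3K36me3 and 1 had CTCF, beside 22 and 2 such peaks. The window before the first on chromosome 16 held 10, beside 23 and 14 such peaks. Also with 10 each were chr17:46000001-47000000, which contains the HOXB cluster, and chr17:79000001-80000000, where 8 had H3K36me3. Such peaks numbered 23 and 18 in the former and 34 and 28 in the latter.

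Median GC content of the regions was 43.1% (middle 50%, 36.2 to 51.2%), against 46.6% with H3K4me1 only and 54.3% with H3K4me3, and the ratio of observed to expected CpG was 0.235, 0.238 and 0.618. Motifs were searched on both strands in the central 300 bp of each peak and in all 9528558 adjoining 300 bp windows of hg19 without undetermined bases. Matches of different motifs could overlap and were counted separately. The CTCF core was present in 77 regions (2.70%, 2.17 to 3.36%), in 1.396% of peaks with H3K4me1 only, in 0.554% with H3K4me3 and in 0.110% of hg19 windows. Of the 77, 70 were regions with CTCF alone and 7 had both marks. It was present in 0 of 1100 regions with neither mark, which allows a share of up to 0.273%. The AP-1 motif TGANTCA, bound by FOS and JUN dimers, was present in 10.5% (9.45 to 11.7%) of the regions, in 23.5% (22.8 to 24.2%) of peaks with H3K4me1 only and in 9.31% of hg19 windows. Within the regions it was most frequent at those with neither mark, 13.0% (11.1 to 15.1%). The TCF/LEF motif CTTTGAT was present in 4.35% of the regions, 4.35% with H3K4me1 only and 5.0% of hg19 windows. The GC box GGGCGG was present in 7.15%, against 50.2% of peaks with H3K4me3 and 4.16% of hg19 windows.

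Near-identical copies elsewhere in hg19, at 95% identity or more over at least 50% of the peak, were found for 154 regions (5.40%, 4.63 to 6.29%), 3.05% of peaks with H3K4me1 only and 4.52% of peaks with H3K4me3. Reads from such copies can be placed at either site. Without these 154, CTCF overlapped 38.0% of the regions and H3K36me3 29.3%.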

How the data were processed

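ChIP-seq libraries of 7 antibodies were made from HCT116 cells, and the peak lists of 6 were used. H3K27Ac was not analysed here. The authors mapped the reads with BWA (0.7.12), on hg19, before broad peak calling in each library. The Methods name MACS2 at a broad cutoff of 0.1, and the submitters' processing notes name MACS 1.4.2. The authors deposited, for each peak, a score, a fold enrichment as a linear ratio, and its p-value and q-value as −log10, unfiltered. The lists hold no read counts, so depth is unknown, and it limits which weak peaks were called. The score was not analysed.

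Regions, genes and lists were chosen with earlier results of these data known. Overlap required 1 bp. Genes were those of GENCODE 44 lifted to hg19, with the canonical TSS (19881 of 20162 coding genes) or otherwise the 5′ end. Medians and 95% Wilson intervals were computed with Python 3.11.15, numpy 2.4.6, pandas 2.3.3 and scipy 1.17.1, and plots were drawn with matplotlib 3.10.9. Sequences were read with samtools 1.23.1 and pysam 0.24.0, and copies were searched with minimap2 2.31-r1302. The limit for a count of 0 was 3 counts. Overlap counts were tested on simulated data and checked against bedtools 2.31.1, without a difference. With 1 library per antibody no test was possible.

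Named by rule were the 12 highest regions by H3K9Ac fold enrichment, the 5 highest with each of CTCF, H3K36me3 and H3K27me3, the 3 highest at a coding TSS and outside genes, the 3 widest, the 6 genes holding most regions, and genes of the lists. Some items that this rule names, genes holding many regions included, are not reported here. HBG2, tied with HBE1, was named beyond it. Alternatives were other limits for each list, a gap of 1000 bp to H3K4 peaks, no width limit, merging, 50% overlap, all annotated genes, a TSS window of 2500 bp and 1 motif mismatch. Leaving out regions with copies was added after seeing the data.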

Additional observations from a re-analysis of the deposited data

How the results depend on the processing

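No paired analysis was possible because each antibody gave 1 library. The number of regions was 6075 with H3K4 peaks past the filter only, 565 with a −log10 q-value of at least 2 for H3K9Ac and 0 with H3K9Ac peaks past the filter. With a gap of 1000 bp to H3K4 peaks it was 2524, and it stayed at 2852 without a width limit or with merging. H3K4 peaks past the filter moved the H3K36me3 share to 21.2%, the share in coding genes to 59.4%, the share at coding TSS to 3.90% and the median fold enrichment to 2.93. A −log10 q-value of at least 2 moved the CTCF share to 54.2%, H3K36me3 to 20.4%, coding genes to 50.4% and coding TSS to 3.36%. The gap moved the CTCF share to 40.6%. An overlap of 50% of either peak gave 31.5% for CTCF and 26.2% for H3K36me3, and peaks of the other mark past the filter gave 32.7% and 0.456%. All annotated genes in place of coding genes gave 75.5% within genes and 6.56% at a TSS, and a window of 2500 bp gave 4.14% at a coding TSS. With 1 mismatch the CTCF core was present in 65.4% of the CTCF peaks at regions. Of 33 values computed under alternatives, 13 lay within the interval of the value given above, or within 1.5 times it for a count, and 20 did not. Under each of the 5 other settings for both shares, CTCF and H3K36me3 overlapped a higher share of the regions than of peaks with H3K4me1 only. Against peaks with H3K4me3, the CTCF share of the regions was lower as given above and higher with the q-value limit (54.2 against 48.1%) and with CTCF peaks past the filter (32.7 against 26.1%). The H3K36me3 share of the regions was lower with H3K4 peaks past the filter (21.2 against 30.6%) and with the q-value limit (20.4 against 26.9%), and higher with the gap, the 50% overlap and peaks of the other mark past the filter.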
